A study of Mus musculus with 8 samples.

Results

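The genes described here make cholesterol and fatty acids, in regulatory T cells labelled as lacking Bcl6 and in wild-type ones. A list of 35 symbols was chosen by pathway role. A gene was measured by a probe set that the array annotation assigns to that symbol alone, and where a gene had several such sets, by the one with the highest mean over all 8 arrays. This gave 33 of the 35, out of 19937 genes measured in all: 19 of a sterol arm, 12 of a fatty acid arm, and the sterol exporters Abca1 and Abcg1. Acat2 had no probe set under that symbol, and the set for Acsl3 is shared with another gene, so neither has a value here.

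The cells were sorted FoxP3+ regulatory T cells (Tregs), a CD4 lineage that holds immune responses in check, and all groups had been stimulated with antibodies to CD3 and CD28 for 16 h before RNA was taken. The group labelled KO carries a knock-out of Bcl6, the gene of a zinc finger repressor, and held preparations KO 1 and KO 2. The wild-type (WT) group held preparations WT 1 and WT 2. Each preparation had an array A and an array B, so there were 4 arrays in each group. The labels do not say whether numbers or letters stand for mice, cultures or extracts, nor give a strain, an age or the part of Bcl6 that was deleted, so the spread that p-values measure here is only that among these 8 arrays and may be technical. So few arrays limit how precise any value can be.

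Cholesterol is made from acetyl-CoA through mevalonate, isoprenoid diphosphates, squalene and lanosterol, and the same acetyl-CoA, released from citrate, feeds fatty acid synthesis. Transcription of both arms is driven by the SREBP factors, which SCAP escorts out of the endoplasmic reticulum when sterol is low and INSIG proteins hold back when it is high. Oxysterols instead switch on the exporters through the LXR receptors. Activated T cells are known to raise both syntheses as they grow and divide, and in Tregs the mevalonate pathway is known to serve proliferation and suppressive function.

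Promoter letters are shown for Hmgcs1, where the sterol regulatory element searched for was found, for Idi1, Ebp and Nsdhl, whose differences between KO and WT were the largest of the sterol arm, and for Mvk and Tm7sf2, whose differences there were among its smallest. Each is the stretch of 180 bases just before the annotated start, read 5′ to 3′ on the gene's strand from RefSeq promoters of build GRCm38.p6. Capitals mark the sterol regulatory element and the CCAAT box, written CCAAT or, on the other strand, ATTGG.
Hmgcs1, chr13:119690171-119690350, plus strand: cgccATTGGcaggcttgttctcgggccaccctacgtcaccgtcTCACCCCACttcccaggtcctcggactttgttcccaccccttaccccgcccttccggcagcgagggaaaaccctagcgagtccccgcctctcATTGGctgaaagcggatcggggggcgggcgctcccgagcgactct
Idi1, chr13:8885426-8885605, plus strand: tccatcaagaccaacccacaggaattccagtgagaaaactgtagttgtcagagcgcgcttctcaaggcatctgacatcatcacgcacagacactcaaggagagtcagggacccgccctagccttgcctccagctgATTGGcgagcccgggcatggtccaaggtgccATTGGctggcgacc
Ebp, chrX:8193513-8193692, minus strand: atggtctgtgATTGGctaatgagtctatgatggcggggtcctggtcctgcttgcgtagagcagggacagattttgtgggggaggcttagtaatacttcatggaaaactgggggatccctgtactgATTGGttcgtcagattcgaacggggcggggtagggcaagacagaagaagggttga
Nsdhl, chrX:72918341-72918520, plus strand: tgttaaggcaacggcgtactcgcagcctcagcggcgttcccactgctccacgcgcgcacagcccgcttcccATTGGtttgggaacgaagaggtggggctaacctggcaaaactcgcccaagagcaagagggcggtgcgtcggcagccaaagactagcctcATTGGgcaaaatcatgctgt
Mvk, chr5:114444089-114444268, plus strand: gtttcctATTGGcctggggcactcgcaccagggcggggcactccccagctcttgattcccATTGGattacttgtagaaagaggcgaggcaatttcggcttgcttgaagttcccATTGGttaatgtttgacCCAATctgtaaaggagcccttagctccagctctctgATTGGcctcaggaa
Tm7sf2, chr19:6067851-6068030, minus strand: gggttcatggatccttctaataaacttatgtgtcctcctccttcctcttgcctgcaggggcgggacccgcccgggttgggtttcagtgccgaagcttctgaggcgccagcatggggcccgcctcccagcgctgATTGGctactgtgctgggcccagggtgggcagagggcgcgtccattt

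In these letters Mvk holds 5 CCAAT boxes, Tm7sf2 holds 1, and the other 4 genes hold 2 each. Promoter windows from 250 bases before to 50 after a start were matched for 25 of the 33 genes, as 32 windows, since some genes have several starts: 19 for 15 sterol genes, 12 for 9 fatty acid genes and 1 for Abca1. All were searched on both strands for TCACNCCAC, a form of the sterol regulatory element that SREBP binds, for the CCAAT box of the factor NF-Y and for GGGCGG, the GC box of the SP family. Matches of different motifs shared bases once, a GC box and a CCAAT box in Elovl1. TCACNCCAC was found in 1 sterol window, that of Hmgcs1, at 137 bases before the start, in 0 fatty acid windows, and in 1.24% of all 32851 promoter windows. CCAAT was in 14 sterol windows (73.7%) and 6 fatty acid windows (50.0%), and in 37.4% of all windows. GGGCGG was in 16 sterol windows (84.2%) and 7 fatty acid windows (58.3%), and in 35.7% of all windows. A window without a match says only that these letters are not in it.

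The arrays differed from each other in ways that touch every value below. The deposited values are log2 expression, and their SD over all probe sets was 1.87 and 1.84 on KO 1A and KO 1B, 1.65 and 1.61 on KO 2A and KO 2B, and between 1.56 and 1.70 on the WT arrays. Bcl6 itself, measured by 1 probe set over its transcripts, read 9.00, 8.82, 8.54 and 8.51 on KO 1A, 1B, 2A and 2B, against 7.97, 8.36, 8.33 and 7.86 on WT 1A, 1B, 2A and 2B. The targeted transcript was thus not lower in the arrays labelled KO (difference 0.59, SE 0.29, adjusted p = 0.701), and with the deleted part unknown it does not check the labels, so KO below means only the label. Y-linked transcripts, as the mean of Eif2s3y, Kdm5d and Uty, stood at 4.62 to 4.80 on the KO arrays and 6.94 to 8.30 on the WT arrays. That level went with the label on all 8 arrays. In every comparison with WT below, what goes with it cannot be told apart from what goes with the label. Foxp3 averaged 10.75 ± 0.31 in KO and 9.91 ± 0.28 in WT (SD, n = 4 each), and the mean over 6 Treg genes was 10.52 to 11.22 in KO and 9.79 to 10.55 in WT. Markers of B cells (4 of 5 measured, means of 6.01 to 6.22 in KO and 6.01 to 6.29 in WT), of myeloid cells (6 of 7, 6.13 to 6.37 and 6.09 to 6.39), of CD8 T and NK cells (4 of 4, 5.94 to 6.26 and 6.16 to 6.36) and of adipocytes or liver (5 of 5, 5.92 to 6.42 and 6.24 to 6.45) overlapped between KO and WT. This overlap pools KO 1 and KO 2. Both KO 1 arrays were below all WT arrays in the adipocyte or liver mean. In KO 1 minus WT, tested below, 4 of those 5 markers passed as lower, where 39% of all genes did. Of B cell markers 1 passed there as higher and 2 as lower, and of myeloid markers also 1 and 2. Of CD8 T and NK markers 2 passed as lower. In KO 2 minus WT no marker of these lists passed. Lyz2, a myeloid marker, was above WT on all 4 KO arrays. Of 4 erythroid markers 1 was measured, Alas2, at 6.37 to 6.74 in KO and 6.02 to 6.39 in WT.

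The first comparison set all 4 KO arrays against all 4 WT arrays, asking whether lipid synthesis genes differ in Tregs labelled as lacking Bcl6. Every sterol arm gene had a positive KO minus WT difference, with a median over the 19 of 0.79 log2 and a range of 0.05 to 1.62. In the fatty acid arm 11 of 12 were above 0, with a median of 0.52 and a range of -0.14 to 1.29, while the median over all genes was -0.06. None of these differences passed the test: limma with the preparation as a random block, Benjamini-Hochberg adjusted over all genes and called under 0.05, gave 0 sterol and 0 fatty acid genes in either direction, where 0.12% of all genes were called higher and 0.015% lower. By unadjusted p under 0.05, the genes above WT were 11 of the sterol and 3 of the fatty acid arm, against 5.65% of all genes. In 12 of 19 sterol and 4 of 12 fatty acid genes all 4 KO arrays lay above all 4 WT arrays, as in 6.67% of all genes. RNA was taken from whole cell preparations, so a change in the share of cells that make a transcript cannot be told apart from a change in the amount per cell.

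The arm as a whole was highest in KO 1. The mean log2 level of the 19 sterol genes was 9.16, 9.02, 8.33 and 8.32 on KO 1A, 1B, 2A and 2B, against 7.91, 8.11, 8.09 and 7.83 on WT 1A, 1B, 2A and 2B. The mean of the 12 fatty acid genes was 9.04, 8.99, 8.41 and 8.37 on the KO arrays in that order, against 8.08, 8.26, 8.18 and 8.09 on the WT arrays. In both arms the KO and WT arrays did not overlap, and the gap between KO 1 and KO 2 was wider than that between KO 2 and WT.

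**Figure D1:**
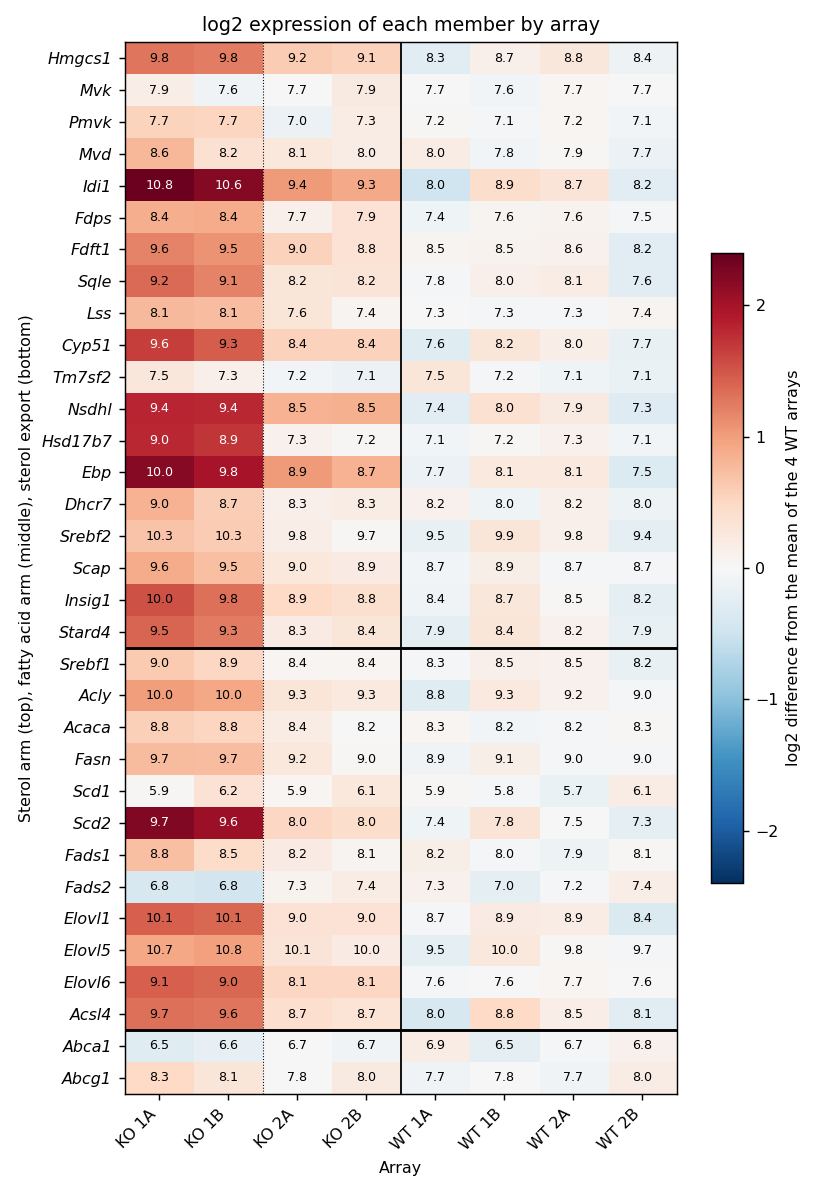
Heat map of log2 expression of the 33 genes (rows, in pathway order, sterol arm at the top, fatty acid arm in the middle, exporters at the bottom) on each array (columns, KO left of WT), coloured by the difference from the mean of the 4 WT arrays. The KO 1 columns are the darkest for most rows, the KO 2 columns are paler, and the rows of Mvk, Tm7sf2, Scd1, Fads2, Abca1 and Abcg1 show little of it.

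KO 1 and KO 2 were therefore set against the 4 WT arrays one at a time, in a fit with KO 1, KO 2 and WT as 3 groups. Both comparisons use the same WT arrays, so the pair is not independent, and the spread behind their p-values is that between arrays A and B of a preparation and among WT arrays. In KO 1 minus WT, 17 of 19 sterol genes passed as higher, with a median over all 19 of 1.13, and 10 of 12 fatty acid genes passed as higher, with a median of 0.85. That comparison called 31.5% of all genes higher and 39% lower, so a call there is common, and among the members it called Fads2 alone lower. In KO 2 minus WT, 2 sterol genes passed, Ebp and Nsdhl, and no fatty acid gene did, where 0.933% of all genes were called higher and 0.176% lower. The medians there were 0.24 for the sterol arm and 0.20 for the fatty acid arm, against 0.02 for all genes. All 12 fatty acid genes and 18 of 19 sterol genes were above 0 in KO 2 minus WT, with Tm7sf2 at -0.10.

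The position of single arrays gave the same contrast in another form. Both KO 1 arrays lay above all 4 WT arrays in 17 sterol and 10 fatty acid genes, as in 34% of all genes. Both KO 2 arrays did so in 12 sterol and 4 fatty acid genes, as in 9.54% of all genes. The sterol genes in which KO 2 overlapped with WT were Mvk, Pmvk, Lss, Tm7sf2, Hsd17b7, Srebf2 and Stard4.

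The spread of the arrays moves with these counts. Each array's SD was used as a covariate, an alternative added after seeing the data. With it, 3 sterol and 2 fatty acid genes passed as higher in KO 1 minus WT, where 4.79% of all genes did. In KO 2 minus WT 7 and 2 did, where 5.19% of all genes did. KO 1A and KO 1B had the largest SDs, 1.87 and 1.84, against at most 1.70 on the other arrays. The covariate thus overlaps with KO 1, and their parts cannot be told apart, here or wherever it is used below. With quantile normalization, which gives all arrays 1 distribution, 13 sterol and 7 fatty acid genes passed as higher in KO 1 minus WT, where 24.5% of all genes did. Of the calls made as deposited, 13 sterol and 6 fatty acid ones held. Those lost were Mvd (0.21), Dhcr7 (0.25), Srebf2 (0.17) and Scap (0.27) of the sterol arm and Srebf1 (0.079), Acaca (0.069), Fasn (0.22) and Fads1 (0.15) of the fatty acid arm, and Scd1 was newly called (0.50). Over all genes the split in KO 1 minus WT was 6272 higher and 7776 lower as deposited, 4875 and 3098 after quantile normalization, and 7945 and 3169 with every array centred on its median. With that centring the median over all genes was 0.11, against -0.13 as deposited, and the sterol median was 1.37.

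**Figure D2:**
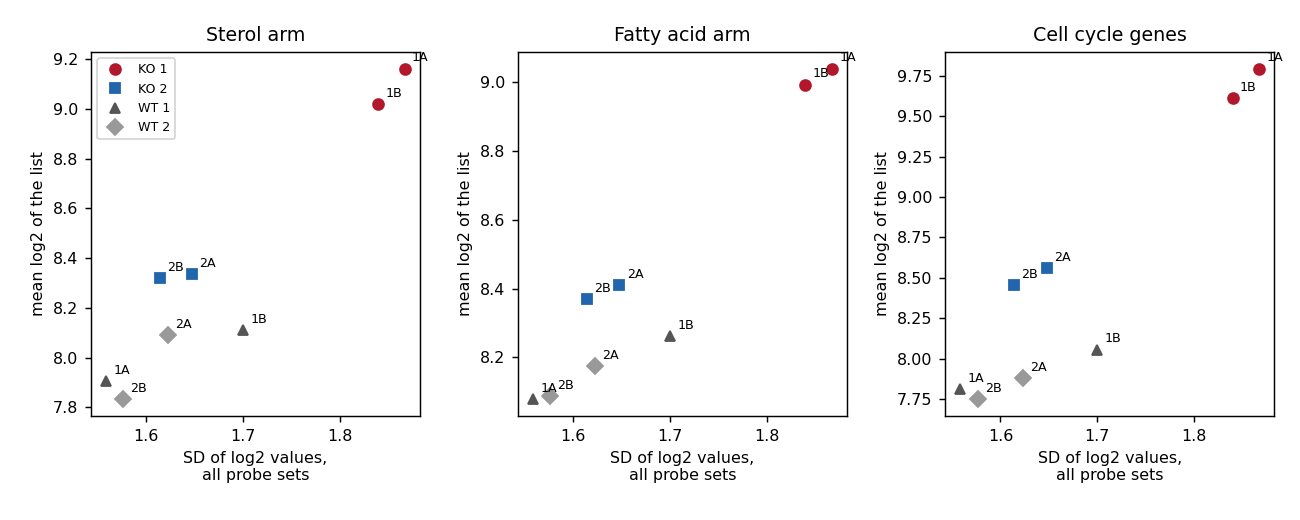
Mean log2 level of the sterol arm, the fatty acid arm and the cell cycle genes (vertical axes, 1 panel each) against the SD of all log2 values on the same array (horizontal axis, log2), with 1 point for each of the 8 arrays. KO 1A and KO 1B, with SDs of 1.87 and 1.84, stand to the right of the other 6 arrays and highest in both arms, and WT 1B has the largest SD of the WT arrays, 1.70.

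Within the sterol arm, the mevalonate genes come first, since they turn acetyl-CoA units into the isoprenoid building block of all later steps. Their 6 members had a median of 0.73 in KO 1 minus WT and 0.23 in KO 2 minus WT. Hmgcs1, the synthase that makes HMG-CoA, read 9.84, 9.78, 9.17 and 9.12 on KO 1A, 1B, 2A and 2B, against 8.30, 8.68, 8.83 and 8.43 on WT 1A, 1B, 2A and 2B. All KO arrays were above all WT arrays, and KO 1 passed (1.25, adjusted p = 5.2e-05) while KO 2 did not (0.58, adjusted p = 0.146). Mvk, mevalonate kinase, read 7.85, 7.61, 7.69 and 7.92 in KO, against 7.70, 7.64, 7.75 and 7.70 in WT. Its groups overlapped fully, with a difference of 0.07 (SE 0.22). Pmvk, the next kinase, read 7.70, 7.69, 7.02 and 7.34 in KO, against 7.20, 7.13, 7.22 and 7.10 in WT, with KO 2A the lowest array of all. It passed in KO 1 (0.53, adjusted p = 0.00304). Mvd, the decarboxylase that ends this stretch, was 8.63, 8.21, 8.09 and 8.02 in KO, against 8.02, 7.77, 7.87 and 7.71 in WT, with KO 2B and WT 1A equal to the second decimal.

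Idi1, the isomerase that makes the 2 isoprenoid isomers interchangeable, had the widest KO minus WT difference of the 33 genes. It read 10.77, 10.63, 9.45 and 9.33 on KO 1A, 1B, 2A and 2B, against 7.95, 8.85, 8.74 and 8.15 on WT 1A, 1B, 2A and 2B. The groups did not overlap, yet the WT arrays spanned 0.90. The difference of 1.62 (SE 0.46), a fold of 3.07, had an adjusted p of 0.411 with the preparation as a block. Against WT, KO 1 was 2.27 higher (adjusted p = 6.9e-06) and KO 2 was 0.97 higher without passing (adjusted p = 0.0636). A second probe set for Idi1 gave 2.30 in KO 1 and 0.94 in KO 2. Fdps, the synthase of farnesyl diphosphate, read 8.40, 8.41, 7.65 and 7.88 in KO, against 7.43, 7.58, 7.61 and 7.48 in WT. It passed in KO 1 (0.88, adjusted p = 1.1e-04), and in KO 2 its difference was 0.24 (adjusted p = 0.821).

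The 3 enzymes from farnesyl diphosphate to lanosterol had medians of 1.13 in KO 1 and 0.30 in KO 2, each minus WT. Fdft1, squalene synthase, commits isoprenoids to sterols and read 9.63, 9.52, 9.00 and 8.79 in KO, against 8.52, 8.53, 8.56 and 8.18 in WT. The groups did not overlap, and WT 2B stood below the other WT arrays. A second probe set for Fdft1 gave 1.31 in KO 1 and 0.50 in KO 2, each minus WT. On that set KO 2B, at 8.35, lay below WT 1B, at 8.41. Sqle, squalene epoxidase, which is a rate-limiting step of the pathway after HMG-CoA reductase, read 9.24, 9.07, 8.16 and 8.19 in KO, against 7.83, 8.00, 8.06 and 7.61 in WT. Its KO 1 arrays stood far above all others, and KO 2 was just above WT. Lss, lanosterol synthase, read 8.10, 8.07, 7.61 and 7.39 in KO, against 7.33, 7.29, 7.28 and 7.40 in WT, with KO 2B inside the WT range. All 3 passed against WT in KO 1, at 1.13, 1.28 and 0.76 in that order (adjusted p = 6.2e-05, 2.3e-05 and 2.4e-04), and in KO 2 minus WT none did, at 0.45, 0.30 and 0.18.

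The 6 enzymes after lanosterol had the highest median of the sterol roles in KO 1 minus WT, 1.66, with 0.36 in KO 2 minus WT. Ebp, the sterol isomerase, read 10.03, 9.83, 8.88 and 8.70 on KO 1A, 1B, 2A and 2B, against 7.71, 8.09, 8.09 and 7.54 on WT 1A, 1B, 2A and 2B. The lowest KO array stood clear of the highest WT array. It had the smallest p of the 33 genes in KO minus WT (1.50, SE 0.37, a fold of 2.83, adjusted p = 0.287), and it passed in KO 1 (2.07, adjusted p = 1.7e-06) and in KO 2 (0.93, SE 0.17, a fold of 1.91, adjusted p = 0.0176). Nsdhl, the dehydrogenase that takes part in removing methyl groups from lanosterol, read 9.45, 9.43, 8.46 and 8.48 in KO, against 7.35, 7.99, 7.85 and 7.32 in WT. It too passed in KO 1 (1.81, adjusted p = 8.8e-06) and in KO 2 (0.84, a fold of 1.79, adjusted p = 0.0466). Cyp51, the lanosterol demethylase, read 9.55, 9.34, 8.44 and 8.44 in KO, against 7.60, 8.18, 8.04 and 7.71 in WT, without overlap. It passed in KO 1 alone (1.56, adjusted p = 1.3e-05), with 0.56 in KO 2 (adjusted p = 0.209).

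The calls of Ebp and Nsdhl in KO 2 minus WT rest on few arrays and changed with the setting. With KO 2A left out, which leaves KO 2 with 1 array, the difference was 0.84 for Ebp and 0.85 for Nsdhl. With KO 2B left out it was 1.025 and 0.83. Calls of both genes without KO 2A or KO 2B are left out here, as KO 2 then has 1 array. Both genes passed with the array SD as a covariate (adjusted p = 8.7e-06 and 2.9e-05). They also passed without WT 1A (adjusted p = 0.013 and 0.0404) and without WT 1B (2.7e-04 and 3.1e-04). With arrays centred on their medians neither passed (adjusted p = 0.112 and 0.2). Nsdhl also missed the threshold with quantile normalization (adjusted p = 0.0517), where Idi1 passed in its place, with no variance trend (0.0669), with WT 1 and WT 2 as separate groups (0.0867), and without KO 1A, KO 1B, WT 2A or WT 2B, while Ebp passed in all of these. Both genes lie on the X chromosome, as does Acsl4. Over the 741 X-linked genes measured the median of KO 2 minus WT was 0.20 and 4.45% were called higher, against 0.02 and 0.798% over 19177 genes of other chromosomes. The Y-linked level given above separated the same groups, so its part in these calls cannot be told apart from that of the label. The part of the X chromosome in them was not tested.

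Hsd17b7, a sterol ketoreductase, showed the sharpest split between the KO preparations. It read 8.99, 8.91, 7.29 and 7.23 on KO 1A, 1B, 2A and 2B, against 7.13, 7.22, 7.29 and 7.12 on WT 1A, 1B, 2A and 2B. KO 2 lay at WT levels and KO 1 far above them. The gene was 1.76 higher in KO 1 (a fold of 3.39, adjusted p = 3.2e-07) and 0.07 from WT in KO 2 (a fold of 1.05), and KO 1 minus KO 2 was 1.69 (adjusted p = 1.4e-05). Dhcr7, the reductase of the final step, read 8.97, 8.73, 8.26 and 8.31 in KO, against 8.23, 8.03, 8.25 and 8.01 in WT, so KO 2 barely cleared WT. It passed in KO 1 (0.72, adjusted p = 7.7e-04). Tm7sf2, a sterol reductase that shares its reaction with the lamin B receptor, read 7.48, 7.33, 7.15 and 7.07 in KO, against 7.51, 7.18, 7.10 and 7.05 in WT. Its highest array was WT 1A, and none of its comparisons with WT passed.

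Of the genes that regulate sterol supply, 4 were measured, with medians of 1.07 in KO 1 and 0.24 in KO 2, each minus WT. Insig1, which holds SCAP in the endoplasmic reticulum and is itself a target of SREBP, read 9.97, 9.76, 8.91 and 8.82 in KO, against 8.35, 8.71, 8.47 and 8.22 in WT. All KO arrays were higher, and only KO 1 passed (1.42, adjusted p = 1.5e-05, against 0.43 and an adjusted p of 0.392 in KO 2). Scap read 9.63, 9.46, 9.00 and 8.94 in KO, against 8.67, 8.89, 8.72 and 8.70 in WT, again without overlap and with KO 1 passing (0.80, adjusted p = 3.4e-04). Srebf2, which encodes the SREBP of the sterol genes, read 10.34, 10.28, 9.82 and 9.70 in KO, against 9.48, 9.94, 9.77 and 9.44 in WT. Its KO 2 arrays lay inside the WT range. Stard4, a carrier of cholesterol between membranes, read 9.50, 9.35, 8.30 and 8.38 in KO, against 7.87, 8.39, 8.20 and 7.93 in WT, with KO 2 likewise inside WT and KO 1 1.33 higher (adjusted p = 3.1e-05).

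**Figure D3:**
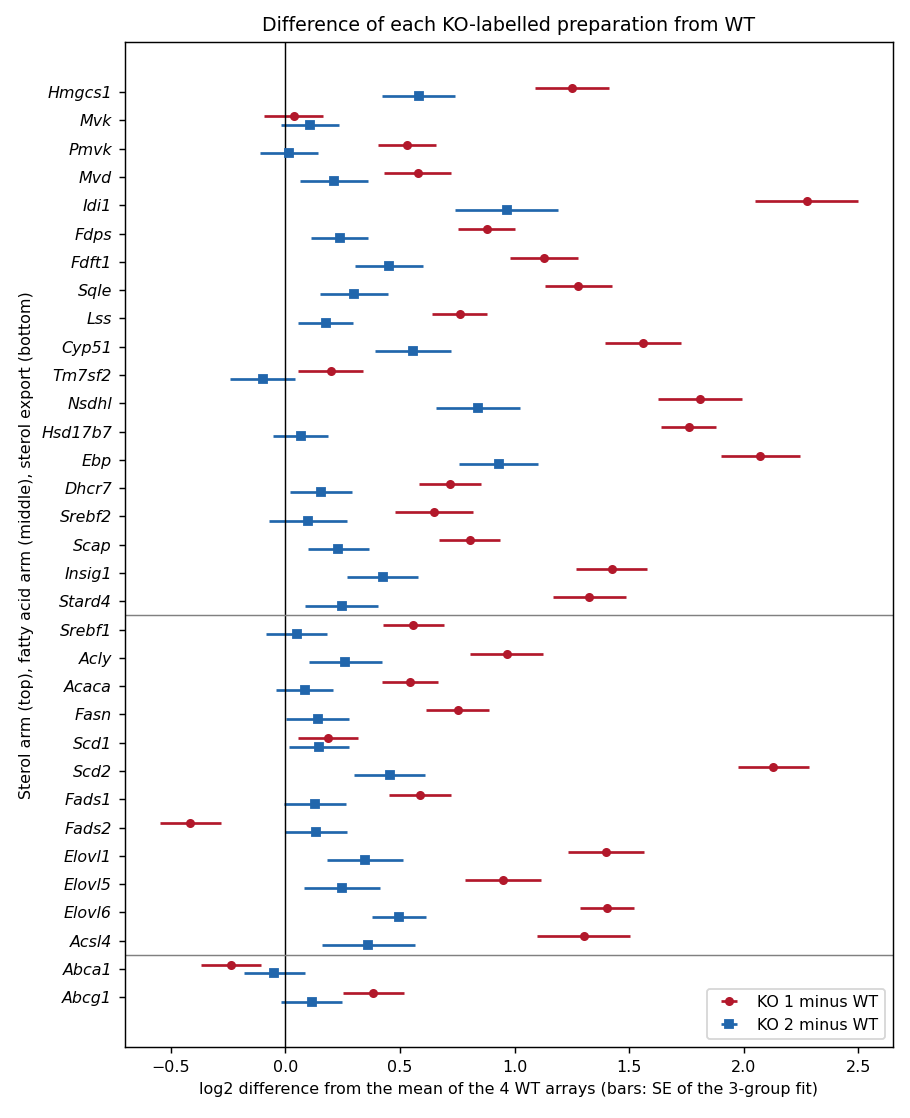
Difference of KO 1 (red circles) and of KO 2 (blue squares) from the mean of the 4 WT arrays for each gene (rows, in pathway order), in log2 with bars for the SE of the 3-group fit. KO 1 reaches 2.27 at Idi1 and 2.13 at Scd2, KO 2 stays between -0.10 and 0.97, and Fads2 and Abca1 lie below 0 in KO 1.

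The fatty acid arm opens with its regulator and the 3 enzymes of synthesis. Srebf1, the SREBP gene tied to fatty acid synthesis, read 8.99, 8.85, 8.41 and 8.41 in KO, against 8.33, 8.49, 8.46 and 8.18 in WT, with KO 2 inside the WT range. Acly, which frees acetyl-CoA from citrate, read 10.04, 9.98, 9.33 and 9.29 in KO, against 8.76, 9.28, 9.15 and 9.00 in WT. The groups did not overlap, though KO 2B and WT 1B nearly met. Fasn, fatty acid synthase, read 9.74, 9.73, 9.23 and 9.02 in KO, against 8.90, 9.13, 8.96 and 8.95 in WT. Acaca, the carboxylase that makes its malonyl-CoA, read 8.83, 8.76, 8.42 and 8.25 in KO, against 8.30, 8.19, 8.23 and 8.28 in WT. In both, KO 2B fell inside the WT range. All 4 genes passed against WT in KO 1, at 0.56 for Srebf1, 0.97 for Acly, 0.75 for Fasn and 0.54 for Acaca (adjusted p between 3.1e-04 and 0.00325), and in KO 2 minus WT none did, at 0.05, 0.26, 0.14 and 0.08. After quantile normalization Acly alone of the 4 passed in KO 1 (0.45, adjusted p = 0.00696). A second probe set for Acaca gave 1.00 in KO 1 and -0.07 in KO 2, so the 2 sets differed in size and, for KO 2, in sign.

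Elongation genes had medians of 1.40 in KO 1 and 0.35 in KO 2, each minus WT. Elovl6, which lengthens saturated and monounsaturated chains made by Fasn, read 9.08, 9.01, 8.14 and 8.13 on KO 1A, 1B, 2A and 2B, against 7.61, 7.63, 7.69 and 7.63 on WT 1A, 1B, 2A and 2B. The WT arrays spanned 0.08 and all KO arrays stood clear of them. Its difference of 0.95 (SE 0.27, a fold of 1.93) did not pass with the preparation as a block (adjusted p = 0.417). It was 1.40 in KO 1 (a fold of 2.65, adjusted p = 1.8e-06) and 0.50 in KO 2 (a fold of 1.41, adjusted p = 0.0697). Elovl1, which makes very long saturated chains, read 10.12, 10.07, 9.04 and 9.04 in KO, against 8.65, 8.90, 8.88 and 8.35 in WT, without overlap. Elovl5, which lengthens polyunsaturated chains, read 10.70, 10.76, 10.08 and 9.97 in KO, against 9.55, 10.03, 9.81 and 9.73 in WT, with KO 2B inside WT. Both passed in KO 1, at 1.40 and 0.95 (adjusted p = 2.8e-05 and 4.4e-04).

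Among the 4 desaturase genes, Scd2 and Fads1 passed as higher and Fads2 as lower in KO 1, each against WT. Scd2, a stearoyl-CoA desaturase, read 9.74, 9.58, 8.02 and 7.95 on KO 1A, 1B, 2A and 2B, against 7.43, 7.84, 7.54 and 7.30 on WT 1A, 1B, 2A and 2B. KO 1 was 2.13 above WT (a fold of 4.38, adjusted p = 5.5e-07), KO 2 was 0.46 above it (a fold of 1.37, adjusted p = 0.318), and KO 1 minus KO 2 was 1.67 (adjusted p = 8.0e-05). Scd1, its paralogue, read 5.91, 6.24, 5.93 and 6.14 in KO, against 5.92, 5.84, 5.73 and 6.07 in WT, and overlapped in every comparison as deposited. Fads1, which inserts a double bond into polyunsaturated chains, read 8.78, 8.50, 8.24 and 8.12 in KO, against 8.19, 8.01, 7.93 and 8.08 in WT, and passed in KO 1 (0.59, adjusted p = 0.00255). Fads2, which acts before it on the same chains, read 6.84, 6.79, 7.31 and 7.42 in KO, against 7.34, 6.99, 7.20 and 7.40 in WT. It is the 1 gene of the 33 called lower anywhere, in KO 1 minus WT (-0.41, adjusted p = 0.0159) and KO 1 minus KO 2 (-0.55, adjusted p = 0.0104), and neither call held after quantile normalization or centring. Acsl4, a ligase that loads long polyunsaturated acids such as arachidonate onto CoA, read 9.68, 9.63, 8.75 and 8.68 in KO, against 7.96, 8.82, 8.52 and 8.10 in WT. WT 1B lay above both KO 2 arrays, and KO 1 was 1.30 above the WT mean (adjusted p = 2.1e-04).

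Of the exporters, Abcg1 passed against WT in KO 1, and Abca1 in no comparison. Abca1 read 6.46, 6.56, 6.73 and 6.67 in KO, against 6.92, 6.52, 6.71 and 6.84 in WT, with partial overlap and a difference of -0.14 (SE 0.22). Abcg1 read 8.28, 8.10, 7.81 and 8.03 in KO, against 7.73, 7.79, 7.72 and 7.98 in WT, and passed in KO 1 (0.38, adjusted p = 0.0212) with both KO 1 arrays above WT. After quantile normalization that difference was 0.094 and did not pass (adjusted p = 0.571).

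The difference between the KO preparations was itself tested in the 3-group fit, as KO 1 minus KO 2. There, 16 of 19 sterol genes passed as higher (median over 19 of 0.67), and 10 of 12 fatty acid genes passed as higher (median over 12 of 0.66), with Fads2 lower. Over all genes it called 29.6% higher and 33.5% lower. Mvk, Mvd and Tm7sf2 of the sterol arm and Scd1 of the fatty acid arm did not pass, nor did the exporters. With quantile normalization 8 sterol and 4 fatty acid genes passed as higher (16.9% of all genes), and with the array SD as a covariate 1 and 2 did (2.01%). Without KO 1A, and likewise without KO 2B, 10 sterol and 3 fatty acid genes passed as higher, with 14.2% and 16.6% of all genes.

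WT arrays also differed among themselves in the same genes. WT 2B was the lowest WT array in 11 of 19 sterol genes and WT 1A in 6, while WT 1B and WT 2A were each the highest in 8. In the fatty acid arm WT 1A was the lowest in 5 of 12 and WT 1B the highest in 7. The order thus crossed the labelled preparations, since WT 1 held both a low and a high array. Without WT 1B, 6 sterol and 2 fatty acid genes passed as higher in KO 2 minus WT, where calls over all genes also increased, to 2.90% higher. With any single array left out, KO 2A and KO 2B included, the sterol median of KO 2 minus WT was 0.21 to 0.29. The fatty acid median was 0.17 to 0.27.

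**Figure D4:**
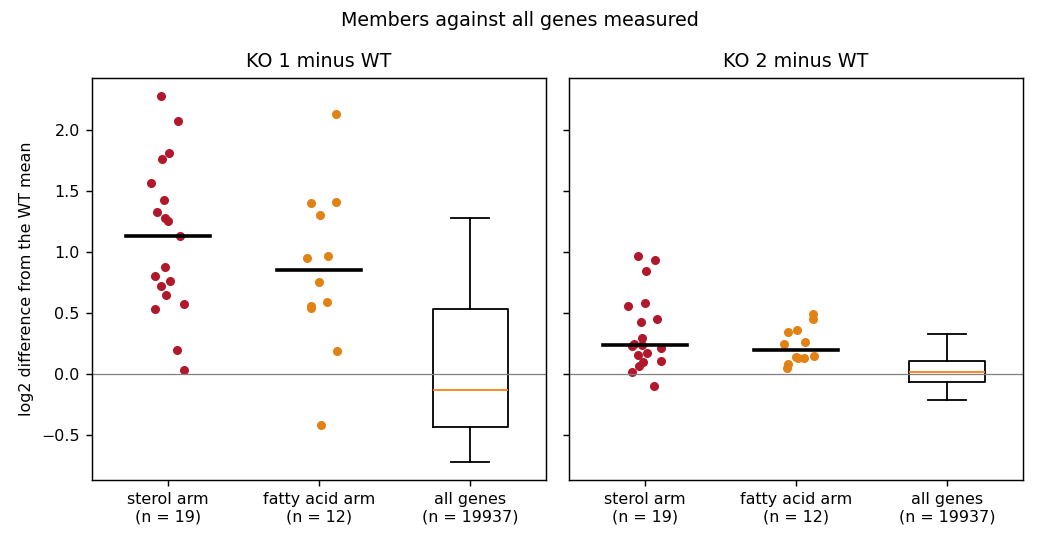
Log2 differences from the WT mean in KO 1 (left panel) and KO 2 (right panel) for the sterol arm and the fatty acid arm (1 point per gene, bar at the median) and for all 19937 genes (box from the lower to the upper quartile with the median, whiskers at percentiles 5 and 95). In KO 1 the sterol median is 1.13 and the fatty acid median 0.85 against -0.13 for all genes, and in KO 2 they are 0.24 and 0.20 against 0.02.

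A wider list of 35 symbols for other genes of sterol and fatty acid handling gave 27 measured genes. None passed in KO minus WT, where the median was 0.36 and 0.12% of all genes were called higher. Against 5.65% of all genes, 6 of the 27 were higher at an unadjusted p under 0.05. These were Npc1, Sc5d, Lpcat3, Msmo1, Acsl5 and Hsd17b12, with differences of 1.01, 1.00, 0.97, 0.99, 0.93 and 0.93. In KO 2 minus WT, where 0.933% of all genes passed as higher, 1 gene of the 27 did: Npc1, which carries cholesterol out of lysosomes. It read 9.69, 9.60, 9.01 and 9.02 on KO 1A, 1B, 2A and 2B, against 8.30, 8.51, 8.25 and 8.21 on WT 1A, 1B, 2A and 2B, clear of WT on all KO arrays, with 1.33 in KO 1 (adjusted p = 8.9e-06) and 0.69 in KO 2 (adjusted p = 0.0225). All 9 further sterol genes passed as higher in KO 1 minus WT (31.5% of all genes), with a median of 0.95: the synthesis enzymes Msmo1, Sc5d and Cyb5r3, the ketone body ligase Aacs, the SCAP retention gene Insig2, and the sterol carriers Npc1, Npc2, Osbp and Stard3.

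The further fatty acid genes were mixed. Of 15, 7 passed as higher in KO 1 minus WT, where 31.5% of all genes did: Acsl5 (1.50), Acss2 (0.46), Hsd17b12 (1.55), Lpcat3 (1.52), Oxsm (0.97), Slc25a1 (0.82) and Tecr (0.53). Hsd17b12 and Tecr act in chain elongation beside the Elovl enzymes, Slc25a1 exports citrate from mitochondria, Acss2 and Acsl5 load acetate and long chains onto CoA, and Lpcat3 places polyunsaturated chains into phospholipids. A further 6 passed as lower, a share of the 15 near the 39% of all genes: Acacb (-0.56), Acsl6 (-0.35), Elovl7 (-0.54), Fads3 (-0.69), Me1 (-0.39) and Mid1ip1 (-0.52). Of these, Me1 makes NADPH and Mid1ip1 activates acetyl-CoA carboxylase. Of 3 genes of the LXR side, Nr1h3, which encodes an LXR, and Apoe, a target of it, passed as lower (-0.60 and -0.44) and Mylip was at -0.26 (adjusted p = 0.078). None of these 18 passed in KO 2 minus WT.

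Cell cycle genes were high on the same arrays. The mean of 14 of 15 listed cell cycle genes was 9.79, 9.61, 8.56 and 8.45 on KO 1A, 1B, 2A and 2B, against 7.81, 8.06, 7.88 and 7.75 on WT 1A, 1B, 2A and 2B. All 14 passed as higher in KO 1 minus WT and 6 in KO 2 minus WT, against 31.5% and 0.933% of all genes. In KO minus WT 0 passed (0.12% of all genes), and 13 were higher at an unadjusted p under 0.05 (5.65% of all genes). Top2a, the topoisomerase of dividing cells, was 2.39 higher in KO 1 and 1.16 higher in KO 2 (adjusted p = 0.00171), and the proliferation marker Mki67 was 1.86 and 0.87 higher (adjusted p = 0.0118 in KO 2). Whether the lipid genes move apart from these was not tested.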

How the data were processed

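RNA was profiled on 8 arrays. The authors deposited log2 expression per probe set, and the submitters' processing notes name RMA and Partek without versions. RMA is a method that corrects background, scales arrays to each other and joins the probes of a set. Spread that still differs between arrays can go with wider or narrower differences for whole gene lists. Its part in the values here was not tested. All 28768 probe sets had a value. They were used with no further normalization or filter, and 21771 had 1 gene symbol in the platform annotation, 1557 several and 5440 none. One set per gene, that with the highest mean, left 19937 genes.

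KO minus WT was fitted with limma 3.58.1 in R 4.3.3 (eBayes with a variance trend, preparation as a random block by duplicateCorrelation, correlation 0.617, 12.8 degrees of freedom). A fit of KO 1, KO 2 and WT with no block (13.2 degrees of freedom) gave the other comparisons. Tests were two-sided, Benjamini-Hochberg adjusted over all genes and called under 0.05. SE is that of the fitted log2 difference, and a fold is its power. The code was tested on simulated data.

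Members, lists and tests were chosen with earlier results of these data known. All 35 members are named, as are Bcl6, Foxp3, Mki67, Top2a, every gene of the wider pathway list that passed and its 6 smallest p-values; Mylip was added after its value was seen. Alternatives were other treatments of preparations and letters, other scalings, variance models, array weights, keeping genes at a mean of log2 6 or more, another probe set per gene, and leaving out arrays or preparations. Of these, 3 were added after seeing the data: the array SD as a covariate in the fit of 3 groups, pairs by number and letter, and leaving out KO 1 or KO 2 with no block.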

Additional observations from a re-analysis of the deposited data

Results flagged for a closer look

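Among 66 sets of 4 arrays, 1 gene in 1 group at a time, 1 held an array far from the others. Fdft1 read 8.18 on WT 2B, while the nearest other WT array was at 8.52 and the farthest at 8.56, and its gap took 0.895 of the group's range, above the limit of Dixon's test. On a second probe set for Fdft1 the gap did not recur, with WT 2B at 7.94 beside WT 1A at 7.97. Chance marks about 1 in 20 such sets.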

How the results depend on the processing

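No detection measure was used here, so low values such as those of Scd1 were not set against background. In KO minus WT, 0 sterol and 0 fatty acid genes passed with no block, with preparation means, with array weights, with other probe sets, with quantile normalization or median centring, with no variance trend, among genes at log2 6 or more, and with any single array or WT preparation left out. In these settings 0% to 0.607% of all genes were called higher and 0% to 0.181% lower, so 0 members is near those shares. The replicate block by preparation number gave 7 sterol and 3 fatty acid genes higher (3.11% of all genes), and the replicate block by number and letter, with 4 pairs, gave 1 sterol gene, Ebp (0.492%). The numbers are not known to pair the samples: deviations of same-numbered preparations correlated at 0.416 with only 2 numbers, and those of 1A, 1B, 2A and 2B at -0.69, 0.77, -0.42 and 0.68. The array SD as a covariate gave 7 and 4 genes (8.02% of all genes), with medians of 0.21 and 0.19. Without preparation KO 1 there were 7 and 2 (5.64%), with medians of 0.24 and 0.20, and 1 sterol gene with no random block (0.642%). Without preparation KO 2 there were 17 and 11 higher (36.3%) and 1 fatty acid gene lower, or 17, 10 and 1 with no random block (30.1% higher), and medians of 1.13 and 0.85. The block correlation was -0.629 without KO 1 and -0.642 without KO 2, against 0.617 with all arrays. A negative value counts arrays of the same preparation as more precise than independent ones, which inflates the calls, so the fits with no random block are the more cautious ones. Medians were 0.51 and 0.32 after quantile normalization, and the fatty acid median was 0.62 after median centring and 0.44 to 0.61 with single arrays left out.

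Against WT, KO 1 had medians of 0.61 and 0.47 after quantile normalization, 1.37 and 1.09 after median centring, 0.66 and 0.46 with the array SD as a covariate, which left 3 and 2 genes higher, and the fatty acid median was 0.95 among genes at log2 6 or more. No fatty acid gene was lower (0) under quantile normalization (15.5% of all genes lower), median centring (15.9%) or the SD covariate (3.21%). In KO 2 minus WT the sterol count was 1 with WT 1 and WT 2 as separate groups (0.687% of all genes higher) and 1 with no variance trend (0.903%). It was 0 after median centring (0.567%) and 7 with the SD covariate (5.19%). The fatty acid count was 1 with no variance trend, 1 after quantile normalization (1.38%) and 2 with the SD covariate. Without WT 1B the counts were 6 and 2 (2.9%). Without WT 2A or WT 2B the sterol count was 1 (0.572% and 0.672%). In KO 1 minus KO 2 the counts were 8 and 4 after quantile normalization (16.9% of all genes higher), with medians of 0.43 and 0.30 and 0 lower (7.44%). They were 1 and 2 with the SD covariate (2.01%), with medians of 0.31 and 0.32 and 0 lower (0.993%). After median centring the medians were 0.95 and 0.94, with 0 lower (9.84%). With single arrays left out the medians were 0.64 to 0.70 and 0.58 to 0.72. The causes were not tested.

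Signs turned for values near 0 or under the SD covariate, which overlaps with KO 1. In KO minus WT, Mvk was -0.0126 after quantile normalization, Fads2 was 0.18 and Tm7sf2 -0.10 with the SD covariate, Fads2 was 0.14 and Tm7sf2 -0.10 without preparation KO 1 (with or without the random block), and Tm7sf2 was -0.0854 without preparation WT 2 and -0.0219 to 0.133 with single arrays left out. In KO 1 minus WT, Abca1 was 0.0636 and Mvk -0.11 after quantile normalization, Abca1 was 0.00303 after median centring, Abca1 was 0.38, Fads2 0.22, Acsl4 -0.0790 and Srebf2 -0.21 with the SD covariate, and Mvk was -0.0847 to 0.16 with single arrays left out. In KO 2 minus WT, Pmvk was -0.02 after quantile normalization and after median centring (-0.0157 and -0.0227), and with single arrays left out Pmvk was -0.15 to 0.18, Mvk -0.00527 to 0.22, Acaca -0.00307 to 0.17, Srebf1 -0.0121 to 0.0901, Abca1 -0.12 to 0.0105 and Tm7sf2 -0.15 to 0.000567. In KO 1 minus KO 2 with the SD covariate, Acsl4 was -0.35, Srebf2 -0.25, Idi1 -0.0665, Nsdhl -0.0589 and Fads2 0.0423.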
